A study of Homo sapiens with 6 samples.

Results

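The immune checkpoint ligands of tumour cells are surface and secreted proteins through which a cancer cell can dampen T cells, NK cells or macrophages. A set of 10 such genes was taken by name, with all their probes: CD274, PDCD1LG2, CD276, VTCN1, CD47, NT5E, PVR, NECTIN2, LGALS9 and CD70. These 10 genes had 19 probes, of the 20046 genes named and 47322 probes measured. The rule that picks them uses gene names alone.

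The arrays measured total RNA from MDA-MB-231 cells, a human basal breast cancer line of the triple-negative subtype, grown in DMEM with serum. Cells in one group received lentivirus expressing a scrambled control and cells in the other received lentivirus expressing antagomiR-138, which the labels call antimiR-138 and which pairs with miR-138 to block it. Both groups were harvested 72 h after transduction, on day 3, with 3 arrays in each group and 6 in all. The comparison asks which transcripts differ after miR-138 knockdown, in a single cell line carrying virus in both groups.

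Most checkpoint ligands act by contact with receptors on immune cells. CD274, better known as PD-L1, and PDCD1LG2, or PD-L2, bind the receptor PD-1 on T cells. CD47 binds SIRPA on macrophages and restrains engulfment, and NT5E, or CD73, is an enzyme that makes adenosine from AMP outside the cell. Several of these genes are known to respond to interferon, and triple-negative breast tumours are among the breast cancers treated with antibodies against this system.

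The inhibited miRNA is shown with its seed (bases 2 to 8 from the 5′ end) in capitals, because those bases are the ones with which a miRNA chiefly recognises its targets. RefSeq (GRCh38.p14) gives the same mature sequence for MIR138-1 at chr3:44114234-44114256 and for MIR138-2 at chr16:56858527-56858549, both on the plus strand. No search of the ligand transcripts for seed matches was made here.
hsa-miR-138-5p: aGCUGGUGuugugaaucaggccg

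Probes above background (detection p under 0.05) numbered 19263 to 20430 per array. Arrays of the same group correlated at 0.996 over tested genes, and arrays of different groups at 0.962 to 0.964. VIM, CD44 and EGFR, known to be high in this line, were above background, and ESR1 and PGR were not on any array. CD44 fell by 0.45 and EGFR by 0.91 on the log2 scale, both past the test, and VIM did not pass. Of 6 luminal epithelium markers, 4 entered the test and all 4 passed, where 60.1% of all tested genes passed. KRT8, EPCAM and GATA3 fell by 1.18, 0.35 and 0.52, and KRT18 rose by 0.50. ERBB2, the gene of the HER2 receptor, whose excess defines another breast cancer subtype, was above background on all 6 arrays and fell by 1.15 on the log2 scale (limma adjusted p = 7.92e-05). Of the immune cell markers on the array, 4 of 10 entered the test (CD79A, CD14, CD68 and LYZ), and 4 were above background on no array (PTPRC, CD3E, ITGAM and NKG7, with lowest detection p values of 0.145, 0.292, 0.0532 and 0.273). The other 2, the T cell gene CD3D and the B cell gene MS4A1, were above background on fewer than 3 arrays, with lowest detection p values of 0.0494 and 0.0195. The summed intensity of the immune list was 7666 to 8363 in scrambled control and 6598 to 8283 in antagomiR-138. Within it CD14, a monocyte surface protein, rose by 1.48 on the log2 scale and CD68, a lysosomal protein of macrophages, fell by 0.64. Their part in the results on the ligands was not tested.

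Of the 10 ligand genes, 6 had a probe above background on at least 3 arrays and were tested. CD274, CD276 and NT5E rose on miR-138 knockdown, CD47 fell, and PVR and NECTIN2 did not pass the test (limma, Benjamini-Hochberg adjusted p under 0.05 over 11426 genes). The remaining 4, PDCD1LG2, VTCN1, LGALS9 and CD70, had no such probe. Among all tested genes, 60.1% passed in one or the other direction, 30.9% being higher and 29.1% lower. Against that background 4 of 6 ligand genes is a share close to that of the whole array, and the separation of the groups without overlap in 4 of 6 is close to the 66.6% of all tested genes. The median difference over the 6 tested ligand genes was 0.27 on the log2 scale, against 0.021 over all tested genes. Because the RNA is from bulk cultures, a change in the share of cells that express a ligand and a change in RNA per cell cannot be told apart.

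**Figure D1:**
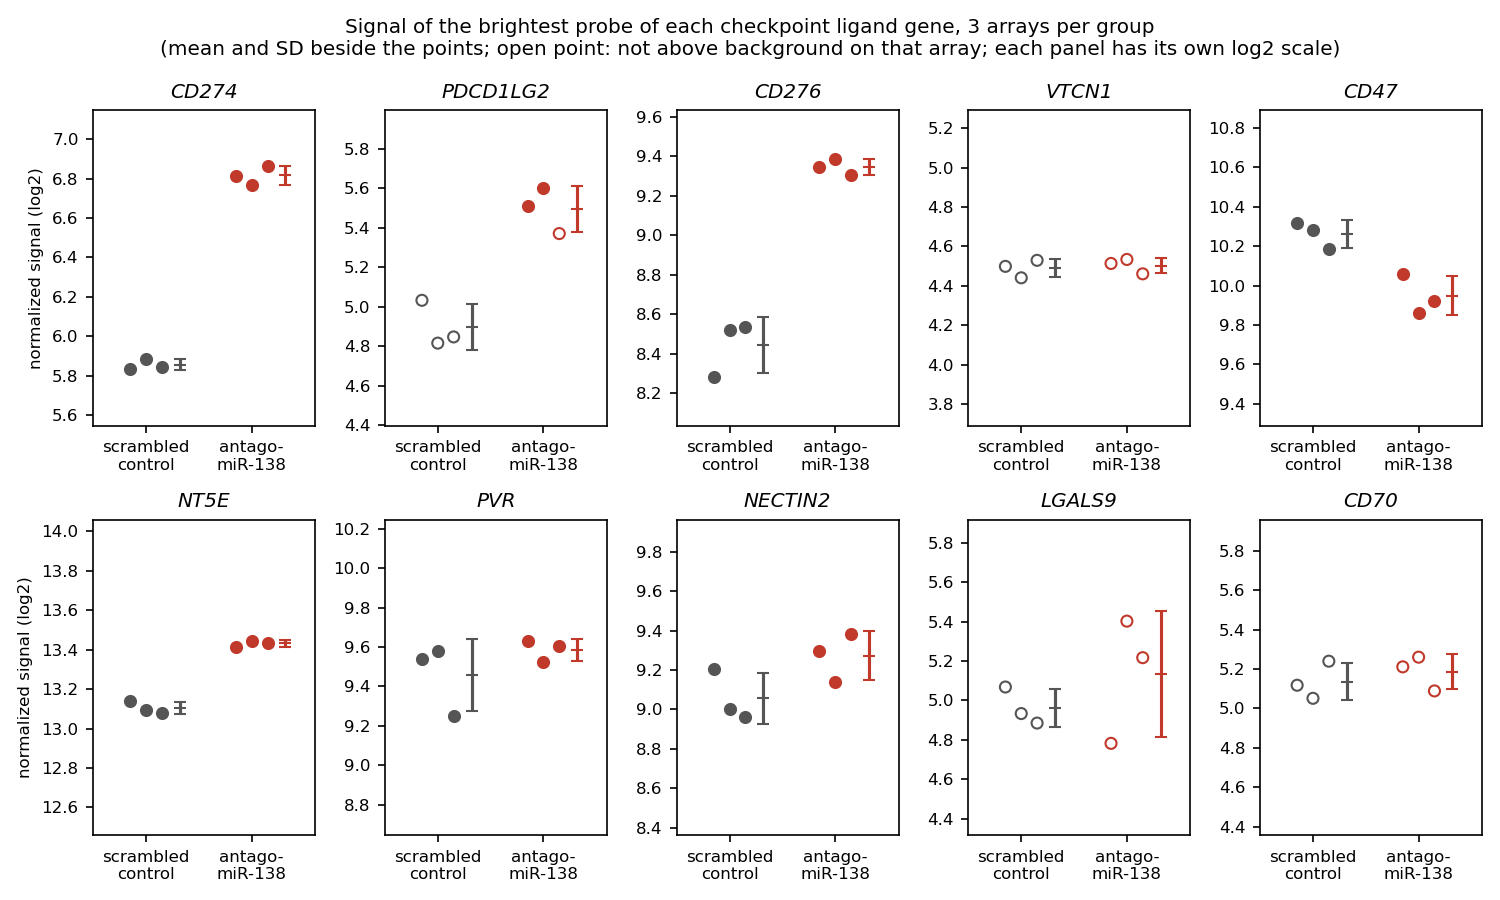
Normalized log2 signal (vertical axis) of the brightest probe of each of the 10 ligand genes in the 3 scrambled control and 3 antagomiR-138 arrays, with the mean and SD beside the points and open points where the probe was not above background. CD274, CD276 and NT5E lie higher and CD47 lies lower in all 3 antagomiR-138 arrays, while VTCN1, LGALS9 and CD70 stay at background on all 6.

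CD274 had a single probe (ILMN_1701914). Its log2 signal was 5.84, 5.89 and 5.84 in scrambled control and 6.82, 6.77 and 6.87 in antagomiR-138. All antagomiR-138 arrays were higher than all scrambled control arrays, with a gap many times the spread inside either group. The mean went from 5.85 ± 0.03 to 6.82 ± 0.05 (SD, n = 3 each), a 1.95-fold rise, or 0.96 on the log2 scale with a standard error of 0.0551 and a 95% interval of 0.83 to 1.09 (limma adjusted p = 1.72e-05). The size of this change exceeded that of 90.5% of tested genes. The deposited intensities, before any normalization between arrays, showed the same separation, at 41.5, 43.8 and 44.8 against 109.8, 87.6 and 84.8. CD274 was dim but above background on every array, with detection p values up to 0.0117, and its difference lay between 0.68 and 0.99 in every alternative that could give it.

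The promoter of CD274 is shown because the gene is a known target of interferon gamma, whose signal passes through JAK kinases and IRF1. The stretch is chr9:5450292-5450591 on the plus strand (RefSeq, GRCh38.p14), from 250 bases before to 50 bases after the annotated start. Capitals mark a gamma-activated site (TTCNNNGAA, bases 126 to 134) and a pair of overlapping interferon-stimulated response elements (GAAA, any 2 bases, GAAA, read on the opposite strand, bases 43 to 52 and 49 to 58). On either strand, the first pattern occurs in 7.66% and the second in 3.57% of 35116 promoters of this length. Among the 8 ligand genes with a promoter in the table, only CD274 held the gamma-activated site, and CD274 and LGALS9 held the response element.
CD274 promoter: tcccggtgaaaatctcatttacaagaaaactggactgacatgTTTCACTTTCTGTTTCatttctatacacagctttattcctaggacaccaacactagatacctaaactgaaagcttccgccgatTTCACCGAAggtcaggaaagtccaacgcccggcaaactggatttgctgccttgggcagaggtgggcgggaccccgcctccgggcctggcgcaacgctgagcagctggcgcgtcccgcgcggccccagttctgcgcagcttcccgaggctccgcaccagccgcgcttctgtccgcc

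PDCD1LG2, the gene beside CD274 on chromosome 9 that encodes the other PD-1 ligand, had 1 probe (ILMN_2159272), which did not enter the test. Its log2 signal was 5.03, 4.82 and 4.85 in scrambled control and 5.51, 5.60 and 5.37 in antagomiR-138. The groups did not overlap, but the probe was above background on none of the scrambled control arrays and on 2 of the 3 antagomiR-138 arrays, with detection p values of 0.0234, 0.0195 and 0.0636. The mean signal moved from 4.90 ± 0.12 to 5.50 ± 0.12 (SD, n = 3 each). Against the lowest signal of a detected probe on each array (5.34 to 5.45 on the log2 scale), the difference was at least 1.08-fold. With no detection filter the difference of 0.60 passed the test (standard error 0.0955, limma adjusted p = 0.00200), with the scrambled control values at background. A filter of detection on at least 1 array was met only through antagomiR-138 arrays, so passing under it adds no support.

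Of the genes around this pair on chromosome 9, PLGRKT, a plasminogen receptor gene upstream of CD274, fell by 0.59 on the log2 scale (limma adjusted p = 0.000401), opposite in direction to CD274. ERMP1, beyond PDCD1LG2, differed by 0.0078 and did not pass the test. Of 15 annotated neighbours tested over all 10 ligand genes, 7 were higher and 2 lower, against 30.9% and 29.1% of all tested genes. The median of these neighbours was 0.19. The strongest of these were C3, the complement component near CD70, at 1.80, and IFT57, a gene of intraflagellar transport near CD47, at 0.86. APOC1, an apolipoprotein gene near NECTIN2, fell by 0.55.

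CD276, or B7-H3, is a B7 family ligand abundant on many solid tumours, with an inhibitory role towards T cells. Its detected probe (ILMN_2365307) had log2 signals of 8.28, 8.52 and 8.53 in scrambled control and 9.35, 9.39 and 9.31 in antagomiR-138. The groups were separate, and scrambled control replicate 1 was the lowest array of its group. The mean went from 8.45 ± 0.14 to 9.35 ± 0.04 (SD, n = 3 each), a 1.87-fold rise, or 0.90 on the log2 scale (standard error 0.0818, 95% interval 0.71 to 1.10, limma adjusted p = 0.000111). This was larger than the change of 89.0% of tested genes, and it passed in every alternative (0.82 to 0.95). The other 3 probes of CD276 did not enter. ILMN_1773781 and ILMN_1683747 were above background on no array and ILMN_1671051 on 1 antagomiR-138 array, so the rise rests on 1 probe of 4. NPTN, a cell adhesion gene beside CD276 on chromosome 15, also rose, by 0.68 on the log2 scale (limma adjusted p = 9.55e-05).

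CD276 has a pair of annotated start sites in the RefSeq table. The promoter of the second (chr15:73684520-73684819, plus strand, GRCh38.p14) is shown because it holds a searched motif, the hypoxia response core (ACGTG, bases 25 to 29, in capitals, read on the opposite strand), which is present in 21.41% of all promoters. The promoter of the first start site held none of the 5 motifs searched.
CD276 promoter, second start: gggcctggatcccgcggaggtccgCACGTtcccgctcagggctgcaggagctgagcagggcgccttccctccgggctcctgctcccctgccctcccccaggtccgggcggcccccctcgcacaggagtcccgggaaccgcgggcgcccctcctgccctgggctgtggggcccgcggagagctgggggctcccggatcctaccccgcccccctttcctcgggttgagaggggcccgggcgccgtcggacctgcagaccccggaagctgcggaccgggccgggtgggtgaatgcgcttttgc

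VTCN1, or B7-H4, a B7 family inhibitor of T cells, was at background throughout. Its probe (ILMN_1753101) ranged from 4.44 to 4.53 on the log2 scale, with detection p values of 0.913 to 0.975 over the 6 arrays. No difference could be measured for it. The search of its promoter found an AP-1 site (TGANTCA), a pattern in 7.71% of promoters, and the NF-kB pattern (GGG, any 2 bases, TTTCC, in 1.91%) was in none of the ligand promoters.

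NT5E had 1 probe (ILMN_1697220), detected on every array. Its log2 signal was 13.14, 13.10 and 13.08 in scrambled control and 13.41, 13.44 and 13.44 in antagomiR-138. Both groups were tight and they did not overlap. The mean went from 13.10 ± 0.03 to 13.43 ± 0.02 (SD, n = 3 each), a 1.25-fold rise, or 0.33 on the log2 scale (standard error 0.0520, 95% interval 0.20 to 0.45, limma adjusted p = 0.00148). The deposited intensities were also higher in all antagomiR-138 arrays, at 12438, 10998 and 9608 against 8737, 8538 and 9149. When the arrays were not normalized against each other, the difference of 0.31 no longer passed (limma adjusted p = 0.139), and a threshold of 1.5-fold excludes it.

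The NT5E promoter (chr6:85449833-85450132, plus strand, GRCh38.p14) is shown as that of a ligand gene that rose without any of the searched motifs, so that no letters are capitalised.
NT5E promoter: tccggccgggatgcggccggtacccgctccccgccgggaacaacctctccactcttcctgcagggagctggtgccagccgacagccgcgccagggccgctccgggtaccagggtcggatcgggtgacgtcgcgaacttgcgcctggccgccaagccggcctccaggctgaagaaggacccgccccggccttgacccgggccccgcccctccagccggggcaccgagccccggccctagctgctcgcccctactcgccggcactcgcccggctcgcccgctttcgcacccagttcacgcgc

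The other genes of adenosine production, transport and sensing did not move with NT5E as a group. Among the 9 tested, 1 rose, 2 fell and 6 missed the threshold, with a median of -0.06 on the log2 scale. Of all tested genes, 60.1% passed. ADORA2A, the adenosine receptor best known on T cells, rose by 0.79 (limma adjusted p = 0.000240). ENPP1, an ectoenzyme that releases AMP from nucleotides, fell by 1.08 on its brightest probe, while its other probe differed by 0.16 and did not pass, and their mean was -0.46. SLC29A2, a nucleoside transporter, fell by 0.49. ENTPD1, or CD39, which makes the AMP that NT5E consumes, did not enter the test, its lowest detection p being 0.0623.

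CD47 had 2 tested probes. The brighter (ILMN_1771333) read 10.32, 10.28 and 10.18 on the log2 scale in scrambled control and 10.06, 9.86 and 9.92 in antagomiR-138. The groups did not overlap, although antagomiR-138 replicate 1 lay close to scrambled control replicate 3. The mean fell from 10.26 ± 0.07 to 9.95 ± 0.10 (SD, n = 3 each), 1.24-fold, or by 0.31 on the log2 scale (standard error 0.0728, 95% interval -0.49 to -0.14, limma adjusted p = 0.00837). Before normalization between arrays the intensities overlapped, at 1235, 1222 and 1204 against 1245, 868 and 815. Left without that normalization, the difference of -0.34 did not pass (limma adjusted p = 0.102).

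The second CD47 probe (ILMN_2356991) read 7.84, 8.16 and 7.91 in scrambled control and 7.85, 7.86 and 7.94 in antagomiR-138. These values overlapped, and the difference of -0.084 on the log2 scale did not pass (standard error 0.0958, limma adjusted p = 0.509 over probes). The annotation assigns the probes to different transcripts of CD47, and the fall was measured on 1 of 2 probes only. The promoter (chr3:108090982-108091281, minus strand, GRCh38.p14) carries the hypoxia response core, in capitals at bases 28 to 32.
CD47 promoter: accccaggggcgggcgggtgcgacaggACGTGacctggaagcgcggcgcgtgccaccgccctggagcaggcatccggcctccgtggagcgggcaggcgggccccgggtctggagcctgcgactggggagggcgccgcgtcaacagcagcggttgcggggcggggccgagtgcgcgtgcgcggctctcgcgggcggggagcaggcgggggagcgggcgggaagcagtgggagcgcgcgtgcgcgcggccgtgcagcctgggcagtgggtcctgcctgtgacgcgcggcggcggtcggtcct

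All 5 genes listed as partners or modifiers of CD47 passed the test, 1 higher and 4 lower, with a median of -0.55 on the log2 scale. The share passing among all tested genes was 60.1%. SIRPA, the macrophage receptor of CD47, read 7.03, 7.13 and 7.18 in scrambled control and 5.65, 6.06 and 5.72 in antagomiR-138. It fell by 1.30 (limma adjusted p = 9.52e-05). THBS1, a secreted ligand of CD47, fell by 0.49, and CALR, the calreticulin whose surface exposure promotes engulfment, by 0.55. The glutaminyl cyclase genes went opposite ways. QPCTL, whose enzyme modifies CD47 for SIRPA binding, fell by 0.84, and QPCT, encoding the secreted relative, rose by 2.09, or 4.25-fold (limma adjusted p = 2.70e-06).

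PVR, or CD155, is bound by TIGIT, CD96 and the activating receptor CD226 on T and NK cells. Its brightest probe (ILMN_1677305) read 9.54, 9.58 and 9.25 in scrambled control and 9.63, 9.52 and 9.61 in antagomiR-138. The groups overlapped, scrambled control replicate 3 being the low array. The difference of 0.13 on the log2 scale did not pass (standard error 0.0969, 95% interval -0.10 to 0.36, limma adjusted p = 0.293). A second, dim probe (ILMN_3250483) read 5.04, 5.00 and 4.91 against 5.45, 5.50 and 5.48, above background only in the antagomiR-138 arrays. It was at least 1.07-fold higher there. Because it entered the test only through those arrays, its passing the test adds no support. The mean of the tested probes, which includes this dim probe, gave 0.31 for PVR (limma adjusted p = 0.00884). The remaining probe (ILMN_3250104) was above background on no array.

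NECTIN2, or CD112, is bound by PVRIG, TIGIT and CD226. Its brightest probe (ILMN_1718303) read 9.21, 9.005 and 8.96 in scrambled control and 9.30, 9.14 and 9.38 in antagomiR-138, with overlapping groups. The difference of 0.22 did not pass (standard error 0.0932, 95% interval -0.0054 to 0.44, limma adjusted p = 0.0838). Leaving out single arrays changed that call, as did a variance trend with robust variance (limma adjusted p = 0.0226). Without scrambled control replicate 1 the difference was 0.29 (limma adjusted p = 0.0357), and without antagomiR-138 replicate 2 it was 0.28 (limma adjusted p = 0.0465). The other 2 probes differed by -0.042 (ILMN_2337336, limma adjusted p = 0.792 over probes) and -0.27 (ILMN_2255382, limma adjusted p = 0.126 over probes), and the mean over all 3 was -0.033.

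Over all ligand probes, 10 of 19 entered and 5 of these passed the test, against 49.9% of all tested probes. These 5 include ILMN_3250483 of PVR, which entered only through the antagomiR-138 arrays. The 9 that did not enter include 7 that were above background on no array. Probes of 1 gene differed in direction or in call for CD47, PVR and NECTIN2, the 3 ligand genes with more than 1 tested probe.

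**Figure D2:**
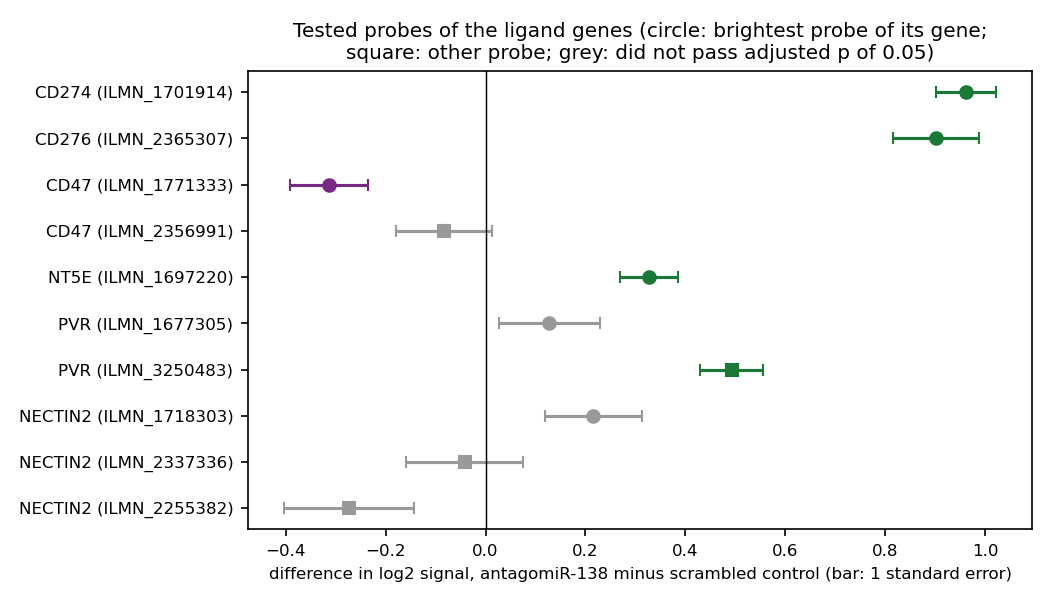
Difference in log2 signal (antagomiR-138 minus scrambled control, horizontal axis, bars of 1 standard error) of the 10 tested probes of the ligand genes, with circles for the brightest probe of a gene, squares for its other probes, green for higher, purple for lower and grey where the adjusted p missed 0.05. The CD274 and CD276 probes lie near 0.96 and 0.90, the other probes of CD47 and PVR lie above their gene's brightest probe, and those of NECTIN2 lie below it.

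LGALS9, or galectin-9, a secreted lectin that binds TIM-3, had 2 probes, neither above background on any array. ILMN_2412214 ranged from 4.78 to 5.40 on the log2 scale, with detection p values of 0.0571 to 0.505, and ILMN_1715760 had detection p values of 0.464 to 0.936. LGALS9 has close copies in the genome, which these probes may not tell apart. CD70, the ligand of CD27 on T cells, had 1 probe (ILMN_1760247) ranging from 5.05 to 5.26, with detection p values of 0.0870 to 0.175. For neither gene does the array measure a difference.

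A list of immune cell receptors, not all of them receptors of the ligand genes studied here, had 13 genes on the array, and 3 entered the test. PDCD1, which encodes PD-1, had no probe assigned to it. HAVCR2, which encodes TIM-3, read 5.22, 5.11 and 5.25 in scrambled control and 6.91, 6.88 and 7.05 in antagomiR-138. It was above background only in antagomiR-138 and was at least 2.96-fold higher there. Because it entered the test only through those arrays, its passing the test adds no support. SIRPA fell by 1.30, and TIGIT differed by 0.10 and did not pass. Of the listed receptor genes on the array that did not enter, CD28 and BTLA were above background on fewer than 3 arrays (lowest detection p values 0.0403 and 0.0455). The others were above background on none.

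Among 17 tested genes known to act on CD274, 6 were higher, 5 lower and 6 did not pass, with a median of 0.17 on the log2 scale. Of all tested genes, 30.9% were higher and 29.1% lower. IFNGR1, a chain of the interferon gamma receptor, rose by 0.83 and IRF1, a transcription factor that acts on the CD274 promoter, by 0.63 (limma adjusted p = 7.63e-05), while the kinase gene JAK2 differed by 0.17 and did not pass (limma adjusted p = 0.221). CMTM6 and CMTM4, whose products hold PD-L1 at the cell surface, fell by 0.35 and 0.56. STUB1, a ubiquitin ligase that acts on PD-L1, fell by 0.42, and GSK3B, a kinase that promotes its degradation, rose by 0.65. Of the proteases that shed PD-L1, ADAM17 rose by 0.84 and ADAM10 fell by 0.58. Both tested probes of ADAM17 rose and both of ADAM10 fell, all past the test. The other tested probe of CMTM4 also fell, by 0.52, and passed. That of STUB1 differed by -0.34 and did not pass (limma adjusted p = 0.0783 over probes).

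Over the 6 arrays, the genes whose pattern was most like that of CD274 were MAP2K4, a kinase of the JNK cascade, DDA1, a subunit of a ubiquitin ligase complex, and RNF103, a ring finger protein (Pearson r of 0.9998, 0.9997 and 0.9997). Such values are common with 2 separate groups of 3 arrays, and 465 genes had an r above 0.99. They are given as a description, since all points share the contrast between groups.

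A further list of immune-regulatory ligands and enzymes had 22 tested genes, of which 8 rose, 5 fell and 9 missed the threshold. The median was 0.093 on the log2 scale. Of all tested genes, 30.9% were higher and 29.1% lower. NECTIN1, an adhesion protein of the nectin family, rose by 1.36 on its brightest probe and was above background on 1 scrambled control array and on all 3 antagomiR-138 arrays. The other tested probe of NECTIN1 rose by 0.60, and the mean of its tested probes was 0.98. TNFSF9, the ligand of the T cell costimulator 4-1BB, rose by 0.77, and CD24, a surface protein bound by Siglec-10 on macrophages, rose by 0.73. TNFSF4, or OX40 ligand, read 7.45, 7.47 and 7.20 in scrambled control and 5.73, 5.72 and 5.53 in antagomiR-138, and fell by 1.72 (limma adjusted p = 1.61e-05). The other tested probe of TNFSF4, above background only in scrambled control, differed by -0.76, and the mean of its tested probes was -1.24. CEACAM1, an adhesion molecule that also binds TIM-3, was above background only in scrambled control and was at least 1.65-fold lower in antagomiR-138. Because CEACAM1 entered the test only through the scrambled control arrays, its place among the 5 that fell adds no support. BTN3A3, a butyrophilin, fell by 0.50.

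Ligands of NK cell receptors rose in 4 of the 5 tested, against 30.9% of all tested genes, and the median was 0.96. CLEC2D, at -0.087, did not pass. MICB, a stress-induced ligand of the activating receptor NKG2D, read 11.17, 11.22 and 11.21 in scrambled control and 12.21, 12.12 and 12.16 in antagomiR-138, and rose by 0.96 (limma adjusted p = 1.61e-05). ULBP2, another ligand of NKG2D, rose by 1.02, and MICA, named after its value was seen, by 0.84. RAET1G rose by 1.10 on its brightest probe. Its other tested probe was above background only in scrambled control and entered only through those arrays. The difference of -1.43 on that probe compares a signal with background, and the mean of the probes, -0.16, includes it. Members of this family are close in sequence, so their probes may read each other's transcripts.

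**Figure D3:**
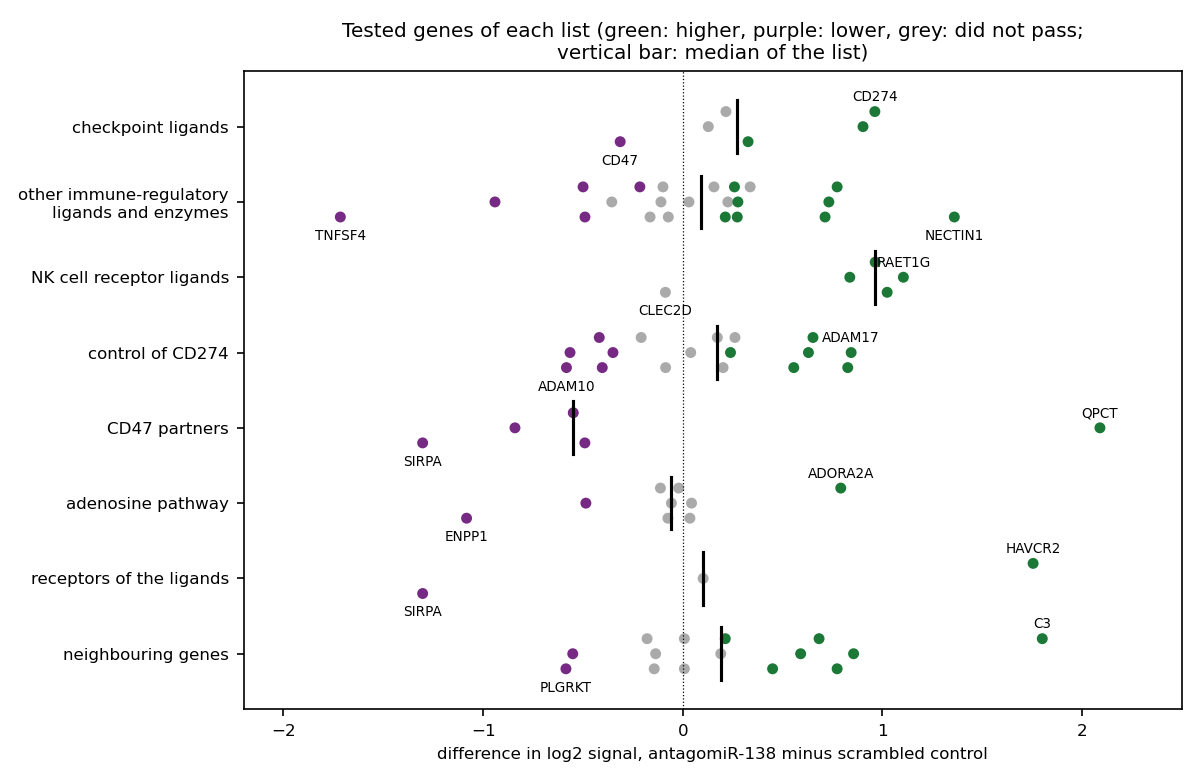
Difference in log2 signal (antagomiR-138 minus scrambled control, horizontal axis) of each tested gene of the ligand group and of 7 companion lists, green where higher, purple where lower and grey where the test was not passed, with a black bar at the list's median. The median is 0.27 for the checkpoint ligands, 0.96 for the NK cell receptor ligands and -0.55 for the CD47 partners, and each list holds genes on both sides of 0.

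**Figure D4:**
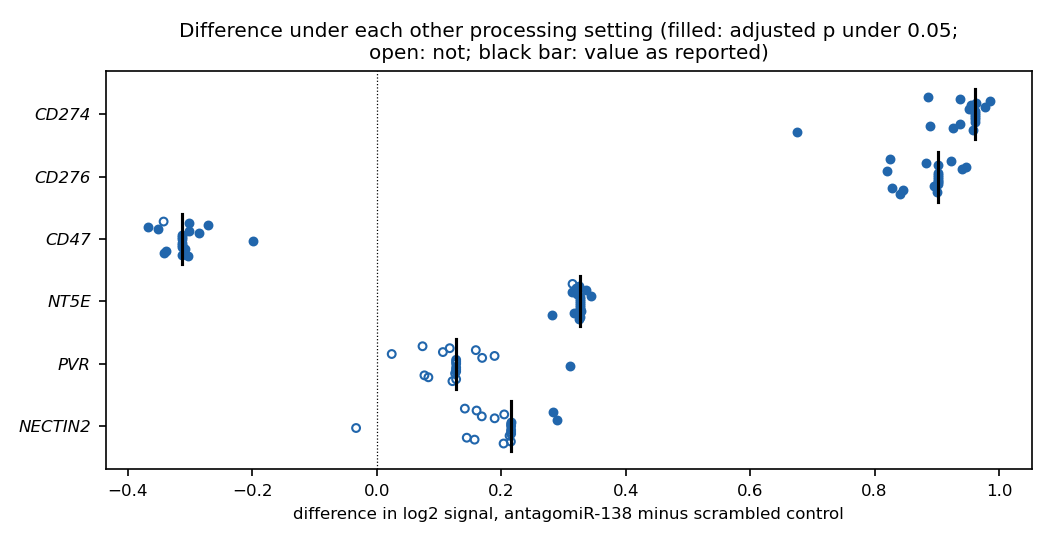
Difference in log2 signal (horizontal axis) of the 6 tested ligand genes under each alternative way of processing the arrays, filled where the adjusted p was under 0.05 and open where not, with a black bar at the reported value. CD274 (0.68 to 0.99) and CD276 (0.82 to 0.95) pass throughout, while NECTIN2 lies between -0.033 and 0.29 and passes in 3, of which 1 falls on the bar.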

How the data were processed

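Total RNA of 6 MDA-MB-231 samples was labelled as biotinylated cRNA and read on Illumina bead arrays. The authors deposited, per probe, a linear intensity with background already subtracted and a detection p-value against negative controls. They also deposited a table of linear intensity normalized between arrays by an unstated method, with array medians of 14.46 to 14.47. The submitters' processing notes name GenomeStudio 1.9.0. No source used here names the slides.

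Unnormalized intensities were processed by neqc of limma 3.58.1 (R 4.3.3), which models background by normexp using those p-values, adds an offset of 16, equalises quantiles and takes log2. A probe entered if it was detected, at p under 0.05, on 3 or more arrays (20051 did, of which 15182 had 1 gene in the platform annotation; 17201 of all 47322 probes have no gene there and 8 have several). The array named in the methods and the annotated platform are different Illumina designs. A gene is its brightest entering probe; 3040 genes had more than 1. Genes were tested with lmFit and eBayes, two-sided, Benjamini-Hochberg adjusted over 11426 genes, and other probes over all entering probes. A probe above background on no array of a group is given as a bound against the lowest detected signal. Fold changes of dim probes depend on the offset. The labels do not say that replicates are separate cultures, so p-values reflect no more than the spread between the samples, which may be technical (median SD 0.097 on the log2 scale), and the number of arrays limits precision.

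The members and lists were chosen with earlier results of these data known. Named genes are all members, up to 3 largest rises and falls of each list, 6 preset genes (1 is not reported here), and the 3 genes most correlated with the most changed member. Alternatives were other background corrections, normalizations, filters, probe summaries, tests and thresholds, the replicate number as a block, and leaving out each array. On simulated data the scripts recovered 63% of changes of 0.5 on the log2 scale and 94% of changes of 1. Each size was given to 100 of 11426 genes, far fewer than passed in the real data. Neighbouring genes, promoters and miRNA sequences are from RefSeq (GRCh38.p14), and 8 of 10 members matched a promoter.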

Additional observations from a re-analysis of the deposited data

How the results depend on the processing

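CD274 and CD276 kept their direction and passed the test in all alternatives run for them. With 1.5-fold added to the threshold, 2873 genes passed (genes called higher 1297, genes called lower 1576), with 2 ligand genes (0 lower), 2 ligand probes and 25 companion genes against 44. Ligand probes passing numbered 3 in place of 5 under median centring and where a detection p under 0.01 was required on all arrays, a filter that the CD274 probe did not meet. With no normalization between arrays, an alternative chosen after seeing the data, genes called higher were 1942 in place of 3536, and 2 ligand genes (0 lower) and 3 ligand probes passed; CD47 was -0.34 (limma adjusted p = 0.102), NT5E 0.31 (0.139) and CMTM6 -0.38 (0.0674). Using the mean of a gene's probes reversed NECTIN2 (-0.033) and RAET1G (-0.16) and let PVR pass. The PVR mean includes probe ILMN_3250483, which entered only through antagomiR-138 arrays. The RAET1G mean includes a probe that entered only through scrambled control arrays. Leaving out 1 array reversed probe ILMN_2337336 of NECTIN2 (-0.12 to 0.066 over the 6 fits) and probe ILMN_2356991 of CD47 (-0.15 to 0.011), and neither passed in any of them. NECTIN2 passed with a variance trend and robust variance (limma adjusted p = 0.0226), and STUB1 did not under the methods' t-test with Benjamini-Hochberg adjustment over all genes. The cause of these changes was not tested. With 1 array left out, 6219 to 6403 genes passed. The labels do not say whether same-numbered arrays share more than a number. Correlations of their deviations were 0.0017 to 0.0526, against -0.0452 to 0.0314 for arrays of different number, which cannot settle it. The replicate block gave 6586 genes in place of 6863 and 4 ligand genes as before. VTCN1, LGALS9 and CD70 lay at background on every array, where no difference could be measured, and PDCD1LG2 has only a bound.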
